A study of Homo sapiens with 6 samples.

Results

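Glycolysis and hypoxia-response genes were followed in THP1 cells cultured on the Notch ligand Dll4. The set was a named list of 39 genes, given by gene symbol and chosen with earlier results of these data known. It holds the oxygen-sensing system, targets of the hypoxia-inducible factors (HIF), sugar transporters, the enzymes of glycolysis and the genes that decide the fate of pyruvate. Of the 39, 36 were matched to a probe set annotated to exactly 1 gene symbol, among 19775 genes measured in all. CA9, SLC16A1 and SLC16A3 were not matched in this way and were not analysed here.

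THP1 is a human monocytic line derived from acute myeloid leukaemia. In 3 samples the cells grew on plates coated with Dll4-Fc, a fusion of the Notch ligand Dll4 and an Fc fragment, and 3 samples were labelled as untreated. All 6 were of this single line, and RNA was taken after 48 hours. The sample labels give a Dll4-Fc dose of 60 nM and the treatment protocol 30 nM, so the dose is not settled. The protocol names vehicle for the control plates, and no samples on Fc alone are among those analysed here. Oxygen, glucose and lactate were not part of the data.

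Each sample was hybridised to 1 Affymetrix Human Genome U133 Plus 2.0 array. Signals are given on the log2 scale, where a difference of 1 is a doubling, and differences are Dll4-Fc minus untreated with their standard error. A gene was called higher or lower where limma's test gave a Benjamini-Hochberg adjusted p under 0.05 over all 19775 genes. Whether the 3 samples of a group were separate cultures is not stated, so p-values here cover sample-to-sample spread alone, and that spread may be technical. Because the samples were bulk RNA, less RNA per cell and fewer cells with a transcript cannot be told apart. Over all genes, 2 arrays of one group had a Pearson's r of 0.997 to 0.999, and a Dll4-Fc array with an untreated one 0.981 to 0.985. The 3' minus 5' log2 signal of GAPDH was 0.38 to 0.39 in Dll4-Fc arrays and 0.37 to 0.39 in untreated arrays. For ACTB it was 0.63 to 0.70 in Dll4-Fc arrays and 0.69 to 0.78 in untreated arrays. Of 11 monocytic marker genes 9 were measured, and of these 0 lay below the median probe set signal of 5.69, 6 were higher with Dll4-Fc and 3 were lower, and the log2 of their summed signal was 15.10 to 15.18 in Dll4-Fc and 13.98 to 14.04 in untreated arrays. All 5 T cell markers lay below that median and none was called, and among B cell, epithelial, fibroblast and erythroid markers PAX5, a B cell factor, was the only one called (higher). The part of the change in monocytic markers in the results that follow was not tested.

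Glycolysis turns glucose into pyruvate in the cytosol. Its flux is set mainly at glucose uptake, hexokinase, phosphofructokinase and pyruvate kinase. HIF is a dimer of an oxygen-labile alpha subunit and the stable subunit ARNT. In normal oxygen, prolyl hydroxylases mark the alpha subunit for destruction. In low oxygen HIF accumulates and switches on most of the glycolytic genes together with genes for vessel growth, mitochondrial turnover and acid export. Macrophages use the same genes when they are activated.

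The genes did not move as a block. In Dll4-Fc cells the steepest rises among the 36 were those of VEGFA, the vascular endothelial growth factor (3.06-fold), and HK1, the housekeeping hexokinase (2.10-fold), followed by PKM, pyruvate kinase (1.47-fold). The steepest falls were those of EPAS1, which encodes HIF-2 alpha (1.94-fold), BNIP3, a mitophagy receptor (1.83-fold), and KDM3A, a histone demethylase (1.5-fold). This order holds for the brightest probe set of each gene: as the mean of probe sets VEGFA gave 0.56 on the log2 scale against 1.07 for HK1, and EPAS1 gave -0.39 and KDM3A -0.25 against -0.83 for BNIP3. Of the 36 genes, 10 (27.8%) were higher, 7 (19.4%) were lower and 19 did not pass. Over all genes 11.6% were higher and 15% lower, 26.6% in either direction. The groups did not overlap for 27 of the 36 (75%), against 41.6% of all genes. The set was brighter than this background: 2 of the 36 genes lay below the median probe set signal, against 7003 of the 19775. With such dim genes left out, 12 of 34 genes of the set were higher and 10 lower. In that setting 2326 of 12772 genes in all were higher and 3261 lower. At least 2-fold, 2 were higher and 0 lower, where 2.6% and 0.602% of all genes were. The median difference was 0.03 for the 36 genes and -0.01 over all genes. It was -0.09 over the 22 of them measured without shared probe sets.

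The 10 genes VEGFA, HK1, PKM, HK3, NDRG1, PFKFB3, PFKFB4, EPAS1, BNIP3 and KDM3A kept their call in every alternative setting in which they were measured. The other 7 called genes lost it in at least 1. These settings left out each array, genes dimmer on average than the median probe set, or probe sets whose ID marks them as shared between transcripts. Others used the mean of a gene's probe sets, normalized by cyclic loess or median centring, or gave limma a trended robust prior. A further setting added the replicate number to the fit (replicate block). VEGFA, NDRG1, HK3, PFKFB3 and KDM3A have shared probe sets only, so the setting without those probe sets did not measure them. Cyclic loess normalization gave 12 genes higher and 4 lower, so that 75% of the calls were higher, against 58.8% as reported, and median centring gave 8 and 9 (47.1%). Over all genes the share of calls that were higher was 43.7%, and 52.9% with cyclic loess and 38.3% with median centring. The number of the 36 genes called lower was 3 without Dll4-Fc replicate 1 or untreated replicate 2, and 4 without Dll4-Fc replicate 2 or untreated replicate 3. In a separate limma fit over all 54675 probe sets, the probe sets used for SLC2A3, PGAM1, ALDOC, PDK1 and P4HA1 did not pass.

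**Figure D1:**
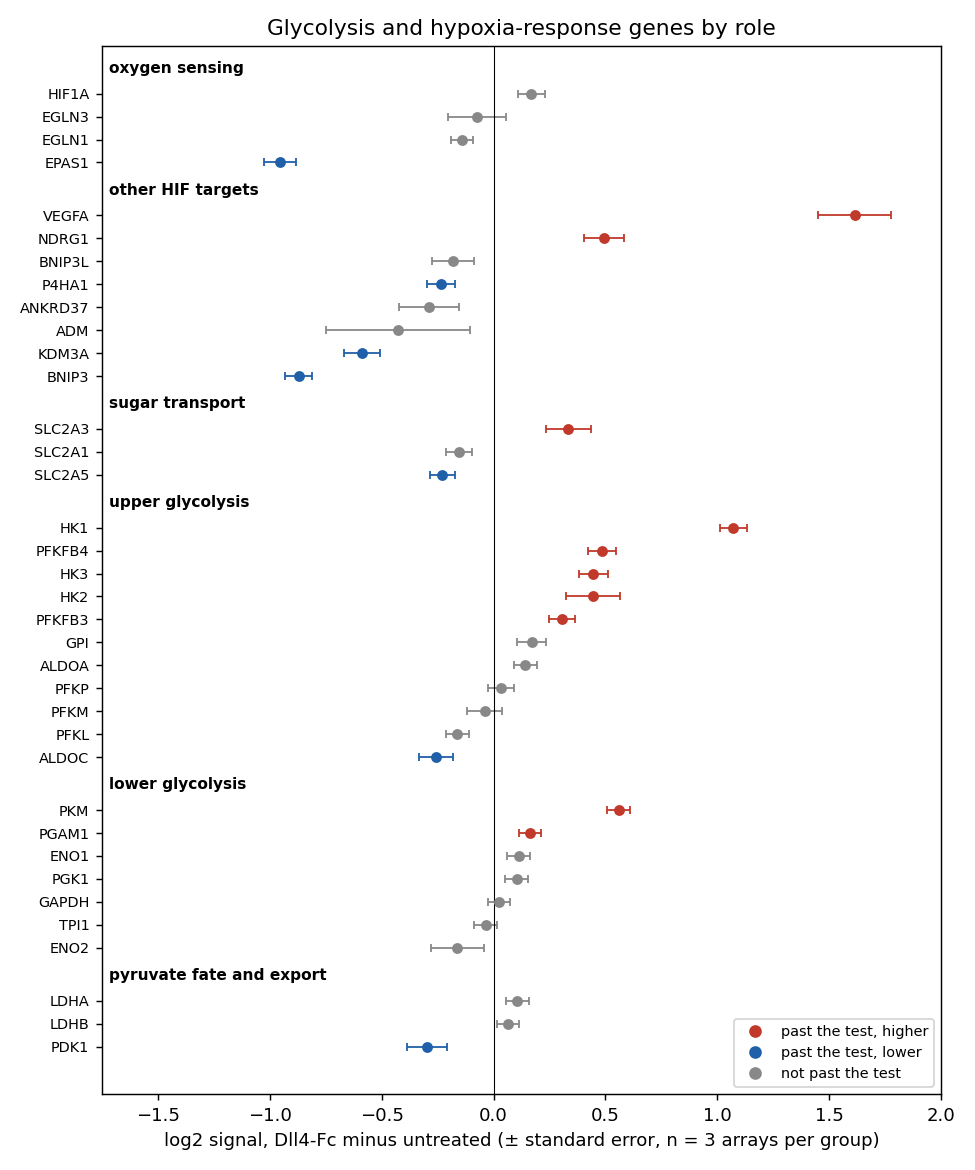
Difference in log2 signal, Dll4-Fc minus untreated, for the 36 measured genes, grouped by role and ordered by size, with the standard error as a bar (n = 3 arrays per group). VEGFA (1.61) and HK1 (1.07) lie furthest to the right, EPAS1 (-0.95) and BNIP3 (-0.87) furthest to the left, and most enzymes of lower glycolysis lie within 0.2 of 0.

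**Figure D2:**
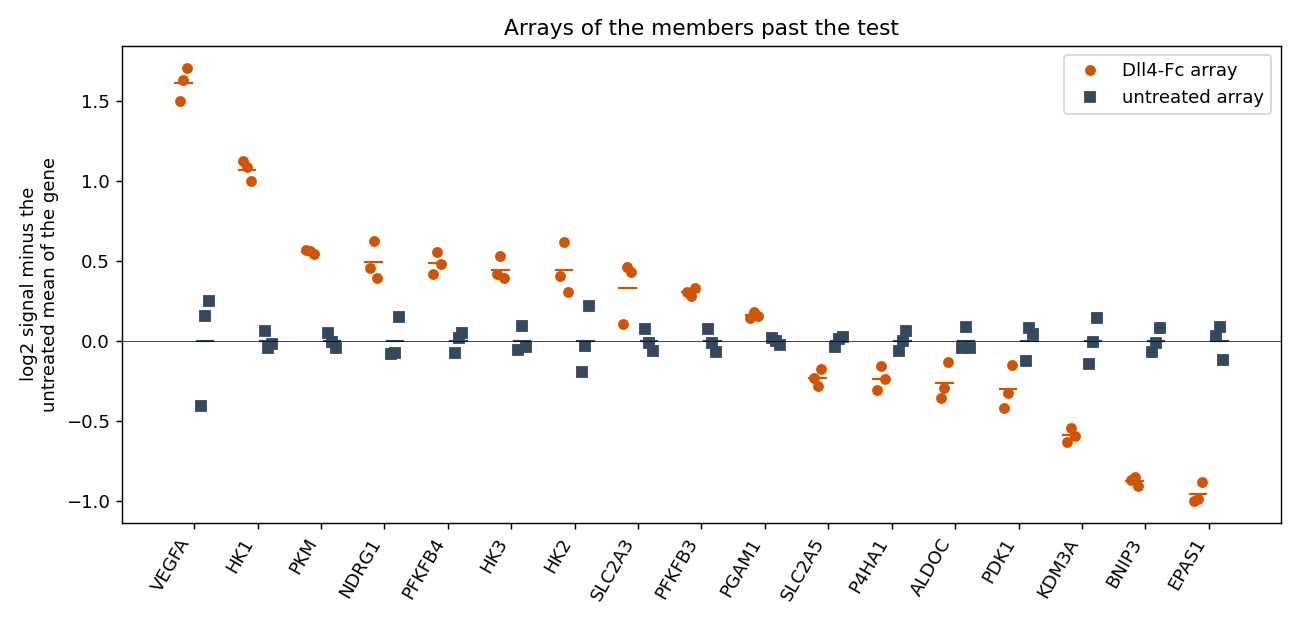
Log2 signal of every array relative to the untreated mean of the gene, for the 17 genes past the test; circles are Dll4-Fc arrays, squares untreated arrays, and short lines the group means. The 3 circles of each gene lie on one side of its 3 squares, closely for SLC2A3 and PDK1 and far apart for HK1, PKM, BNIP3 and EPAS1.

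Of the genes that sense oxygen, EPAS1 was lower and the other 3 did not pass. EPAS1 had log2 signals of 10.07, 10.08 and 10.19 in Dll4-Fc cells, against 11.10, 11.15 and 10.95 in untreated cells. Every Dll4-Fc array lay below every untreated array, and EPAS1 fell by 0.95 ± 0.07 (limma adjusted p = 8.27e-05), the 151st largest fall among all genes. It has 3 probe sets, and the 2 others, which averaged 4.27 and 3.31 in Dll4-Fc cells and 4.31 and 3.50 in untreated cells, did not pass, so the mean of the 3 gave a smaller difference of -0.39 (adjusted p = 0.00126).

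HIF1A, the alpha subunit of HIF-1, had 12.08, 11.96 and 12.00 in Dll4-Fc cells and 11.87, 11.89 and 11.77 in untreated cells. The groups did not overlap, but the difference of 0.17 ± 0.06 did not pass (limma adjusted p = 0.0841). HIF1A did pass, as higher, with cyclic loess, with a trended robust prior and when dim genes were left out, at adjusted p-values down to 0.00598. HIF1A protein is controlled mainly by its breakdown, which an array does not see. EGLN1, the main prolyl hydroxylase that marks HIF alpha, differed by -0.14 ± 0.05 (adjusted p = 0.0789), again without overlap, and 1 of its 4 probe sets was lower in the fit over all probe sets. EGLN1 passed as lower with the mean of probe sets, without dim genes, with median centring and with a trended robust prior, at adjusted p-values down to 0.00182. EGLN3, a prolyl hydroxylase that HIF itself induces, averaged 5.12 ± 0.14 in Dll4-Fc cells and 5.19 ± 0.24 in untreated cells (SD, n = 3), below the median probe set signal, and the groups overlapped.

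The other HIF targets went in both directions: 2 (25%) rose, 3 (37.5%) fell and 3 did not pass, with a median of -0.26. Over all genes 11.6% were higher and 15% lower. VEGFA had 8.79, 8.93 and 9.0 in Dll4-Fc cells, against 6.89, 7.45 and 7.54 in untreated cells. The untreated replicate 1 was the lowest array, and the groups stayed more than 1 log2 unit apart. The rise was 1.61 ± 0.17 (limma adjusted p = 0.000381) and came to between 1.41 and 1.74 when 1 array was left out. It rested on 1 of 4 probe sets: the other 3 gave 0.18, 0.15 and 0.32 and did not pass in the fit over all probe sets. All 4 are shared between transcripts, and the mean of the 4 was 0.56 (adjusted p = 0.00138).

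NDRG1, a stress-induced gene linked to growth arrest and differentiation, was the other target that rose. It had 10.11, 10.28 and 10.05 in Dll4-Fc cells and 9.57, 9.58 and 9.81 in untreated cells, a difference of 0.49 ± 0.09 (adjusted p = 0.00596) without overlap.

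BNIP3, which sits on mitochondria and recruits them for autophagy, had 10.31, 10.33 and 10.27 in Dll4-Fc cells, against 11.11, 11.17 and 11.26 in untreated cells. It fell by 0.87 ± 0.06 (adjusted p = 4.86e-05), and both of its probe sets were lower. Its relative BNIP3L, which serves in mitochondrial removal in maturing red cells, differed by -0.18 ± 0.09 with overlapping groups (adjusted p = 0.211). It passed as lower only when untreated replicate 1 was left out (-0.28, adjusted p = 0.0246).

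KDM3A removes methyl groups from lysine 9 of histone H3. Its signals were 9.43, 9.52 and 9.47 in Dll4-Fc cells and 9.92, 10.06 and 10.20 in untreated cells. The fall was 0.59 ± 0.08 (adjusted p = 0.00157) and 0.25 as the mean of its 2 probe sets, of which the dimmer did not pass. P4HA1, a subunit of the collagen prolyl hydroxylase, fell by 0.23 ± 0.06 (adjusted p = 0.0305) without overlap. That call was lost without Dll4-Fc replicate 1 or 3, without untreated replicate 2 or 3 and with the replicate block. It was also lost as the mean of its probe sets, with cyclic loess and without shared probe sets, where the difference was -0.10 (adjusted p = 0.478).

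ADM, the vasodilator peptide adrenomedullin, spread widely. It had 5.72, 6.15 and 5.64 in Dll4-Fc cells and 5.55, 6.31 and 6.94 in untreated cells, so the groups overlapped and the difference of -0.43 ± 0.32 did not pass (adjusted p = 0.405). ANKRD37, a small ankyrin-repeat protein strongly induced by HIF-1, differed by -0.29 ± 0.13 (adjusted p = 0.172), and it passed only as the mean of its 2 probe sets (adjusted p = 0.0381).

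HIF binds DNA at a 5-letter core, ACGTG or GCGTG. Promoter sequences from RefSeq (GRCh38.p14) were matched for 32 of the 36 genes; VEGFA, NDRG1, BNIP3L and SLC2A3 were not matched. In the 250 bases before the annotated gene start, on either strand, 20 of the 32 (62.5%) held at least 1 core, against 50.9% of the promoters of all measured genes and 43.1% of all promoters in the table. By call, these were 3 of the 7 matched genes that were higher, 5 of the 7 that were lower and 12 of the 18 that did not pass. The promoters of 4 genes are shown, with every core on either strand in capitals, because genes with and without cores are found among those that rose, fell or did not pass. A gene with several starts has promoters outside such a window, and a match is not a binding site.
PKM, which rose and has 0 matches (chr15:72231191-72231440, minus strand): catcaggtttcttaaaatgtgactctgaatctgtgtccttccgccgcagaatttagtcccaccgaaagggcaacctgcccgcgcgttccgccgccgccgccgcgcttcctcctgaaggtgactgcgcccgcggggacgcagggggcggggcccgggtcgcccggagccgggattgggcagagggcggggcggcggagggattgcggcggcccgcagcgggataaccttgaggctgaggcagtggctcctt
HK2, which rose and has 3 matches (chr2:74833877-74834126, plus strand): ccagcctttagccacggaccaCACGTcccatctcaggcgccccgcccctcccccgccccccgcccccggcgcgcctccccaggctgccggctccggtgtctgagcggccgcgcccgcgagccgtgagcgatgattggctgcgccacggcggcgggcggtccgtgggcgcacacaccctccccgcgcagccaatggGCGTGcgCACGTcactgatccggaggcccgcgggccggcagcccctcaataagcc
BNIP3, which fell and has 6 matches (chr10:131981924-131982173, minus strand): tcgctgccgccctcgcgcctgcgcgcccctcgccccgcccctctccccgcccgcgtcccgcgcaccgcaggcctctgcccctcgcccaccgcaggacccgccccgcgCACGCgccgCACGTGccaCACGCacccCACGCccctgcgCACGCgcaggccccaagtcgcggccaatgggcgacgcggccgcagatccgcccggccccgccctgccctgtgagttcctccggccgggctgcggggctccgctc
LDHA, which did not pass and has 5 matches (chr11:18394313-18394562, plus strand): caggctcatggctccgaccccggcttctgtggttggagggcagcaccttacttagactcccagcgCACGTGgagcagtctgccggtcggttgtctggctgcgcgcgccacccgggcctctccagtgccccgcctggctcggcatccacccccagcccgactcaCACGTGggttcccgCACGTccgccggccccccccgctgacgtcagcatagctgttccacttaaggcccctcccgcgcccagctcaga
A CACGTG is the same on both strands and counts as 2 matches, once in BNIP3 and at 2 places in LDHA. The letters TGGGAA, the centre of the sequence bound by RBPJ, the DNA-binding partner of Notch, were in 0 of the 32 windows on either strand, against 20.1% of the promoters of measured genes. The 32 windows were 35.6% to 81.6% G and C. That content was not taken for the comparison promoters, so its part in the shares with TGGGAA or a HIF core was not tested.

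Of the 3 sugar transporters, SLC2A3 was higher, SLC2A5 was lower and SLC2A1 did not pass. SLC2A3 encodes GLUT3, a high-affinity glucose carrier of neurons and leukocytes. It had 5.71, 6.06 and 6.04 in Dll4-Fc cells, against 5.68, 5.59 and 5.55 in untreated cells. Dll4-Fc replicate 1 lay just above the highest untreated array, and the rise of 0.33 ± 0.10 passed narrowly (adjusted p = 0.0464). The call was lost with the replicate block, with median centring and without any array other than Dll4-Fc replicate 1 (adjusted p up to 0.144 over the settings run). Of its 3 probe sets, the one used did not pass in the limma fit over all probe sets (adjusted p = 0.0666). In that fit 1 other gave 0.34 and passed, and 1 gave -0.01. A further 2 probe sets shared by annotation with its near-identical relative SLC2A14 gave 0.09 and -0.06, and neither passed.

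SLC2A5, the fructose carrier GLUT5, had 11.23, 11.17 and 11.28 in Dll4-Fc cells and 11.42, 11.47 and 11.48 in untreated cells. It fell by 0.23 ± 0.06 (adjusted p = 0.0195), and 3 of its 4 probe sets were lower, with differences down to -0.37, while the dimmest gave 0.11 and did not pass. The call was lost with the replicate block and without Dll4-Fc replicate 1 or 2 or untreated replicate 2, at adjusted p-values up to 0.0782. SLC2A1, the basal glucose carrier GLUT1 and a standard HIF target, differed by -0.15 ± 0.06 without overlap and did not pass (adjusted p = 0.0961). It passed as lower without dim genes (adjusted p = 0.0479), while its dim probe set that is not shared between transcripts gave 0.12 (adjusted p = 0.4 without shared probe sets).

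In upper glycolysis 5 of 11 genes (45.5%) rose and 1 (9.09%) fell, against 11.6% and 15% of all genes. The other 5 did not pass, and the median was 0.17. All 3 hexokinases of the set, which trap glucose as glucose 6-phosphate, were among the 5 that rose. HK1 had 11.0, 10.96 and 10.87 in Dll4-Fc cells, against 9.94, 9.83 and 9.85 in untreated cells. The groups lay far apart, and the rise of 1.07 ± 0.06 (limma adjusted p = 2.12e-05) was between 1.04 and 1.12 in every setting run.

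HK2, the inducible hexokinase of muscle, tumours and activated leukocytes, had 9.54, 9.75 and 9.44 in Dll4-Fc cells and 8.94, 9.10 and 9.35 in untreated cells. The lowest Dll4-Fc array was close to untreated replicate 3. The call for the rise of 0.44 ± 0.12 (adjusted p = 0.0311) was lost with the replicate block. It was also lost when Dll4-Fc replicate 1 or 2 or untreated replicate 1 or 2 was left out, at adjusted p-values up to 0.0966. All 3 HK2 probe sets had a difference of 0.36 or more, and 2 passed in the fit over all probe sets. HK3, the hexokinase of myeloid cells, had 6.93, 7.04 and 6.90 in Dll4-Fc cells and 6.45, 6.60 and 6.47 in untreated cells, a rise of 0.45 ± 0.07 (adjusted p = 0.00241).

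The phosphofructokinase genes did not pass, while PFKFB3 and PFKFB4, for enzymes that make and break its activator, did. PFKL, PFKM and PFKP, the liver, muscle and platelet forms, differed by -0.16 ± 0.05 (adjusted p = 0.0616), -0.04 ± 0.08 (0.773) and 0.03 ± 0.06 (0.754). PFKL passed as lower as the mean of its probe sets, without dim genes and with median centring. PFKFB3 is a bifunctional enzyme with a strong kinase activity that makes fructose 2,6-bisphosphate. It had 9.40, 9.38 and 9.42 in Dll4-Fc cells and 9.17, 9.08 and 9.02 in untreated cells. It rose by 0.31 ± 0.06 (adjusted p = 0.00713). PFKFB4 had 8.63, 8.77 and 8.69 in Dll4-Fc cells and 8.14, 8.23 and 8.26 in untreated cells, a rise of 0.49 ± 0.06 (adjusted p = 0.00121). It was 0.29 as the mean of its 2 probe sets, of which the dimmer did not pass.

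GPI, which interconverts glucose and fructose 6-phosphates, differed by 0.17 ± 0.07 (adjusted p = 0.101) and passed as higher with cyclic loess and with a trended robust prior. ALDOA, the aldolase of most tissues, differed by 0.14 ± 0.05 (adjusted p = 0.0822). It passed as the mean of its probe sets, without dim genes and with a trended robust prior. ALDOC, the brain aldolase, fell by 0.26 ± 0.08 (adjusted p = 0.0419), with 6.89, 6.95 and 7.12 in Dll4-Fc cells and 7.21, 7.33 and 7.20 in untreated cells. That call was lost without any one array other than Dll4-Fc replicate 3, with the replicate block, with cyclic loess and without shared probe sets (adjusted p up to 0.144).

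In lower glycolysis 2 of 7 genes (28.6%) rose and 0 fell, against 11.6% and 15% of all genes, with a median of 0.10. PKM, which encodes the pyruvate kinase that makes ATP in the final step, was the clear change. It had 10.16, 10.15 and 10.14 in Dll4-Fc cells, against 9.64, 9.59 and 9.54 in untreated cells, a rise of 0.56 ± 0.05 (limma adjusted p = 0.000245). Both of its probe sets rose, by 0.56 and 0.42. The annotation used names the gene and not its M1 or M2 form.

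PGAM1, phosphoglycerate mutase, had 13.27, 13.30 and 13.28 in Dll4-Fc cells and 13.14, 13.13 and 13.10 in untreated cells. The rise of 0.16 ± 0.05 passed narrowly (adjusted p = 0.0487). The call was lost when any one of the 6 arrays was left out, with the replicate block and with median centring. Adjusted p-values there ran up to 0.155. TPI1, GAPDH, PGK1 and ENO1, the housekeeping enzymes between aldolase and pyruvate kinase, differed by -0.03, 0.02, 0.10 and 0.11, each with a standard error of 0.05, and none passed. ENO1 and PGK1 showed no overlap between groups and passed with a trended robust prior. ENO2, the neuronal enolase, lay at 3.57 ± 0.17 in Dll4-Fc cells and 3.73 ± 0.20 in untreated cells (SD, n = 3), below the median probe set signal, and its groups overlapped.

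Beyond pyruvate, none of the 3 measured genes rose. LDHA and LDHB, the subunits of lactate dehydrogenase, differed by 0.11 ± 0.05 (adjusted p = 0.172) and 0.06 ± 0.05 (0.413). For both, every Dll4-Fc array was above every untreated array: LDHA had 13.70, 13.72 and 13.72 in Dll4-Fc cells and 13.58, 13.63 and 13.62 in untreated cells. Both passed as higher with a trended robust prior. PDK1 encodes a kinase that switches off pyruvate dehydrogenase and is induced by HIF-1. It had 8.49, 8.58 and 8.76 in Dll4-Fc cells and 8.78, 8.98 and 8.95 in untreated cells, groups that just failed to touch. It fell by 0.30 ± 0.09 (adjusted p = 0.0451). That call was lost without Dll4-Fc replicate 1 or 2 or untreated replicate 2 or 3, with cyclic loess and without shared probe sets. It was also lost as the mean of its 3 probe sets, where the difference was -0.09 (adjusted p up to 0.271 over these settings).

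Some of the genes that did not pass, and PGAM1, which passed narrowly, were measured at the bright end of the array. Mean signals of 13 or more were found for 7 of the 36, namely ALDOA, GAPDH, PGK1, PGAM1, ENO1, LDHA and LDHB, and their differences ran from 0.02 to 0.16 with 6 of 7 not overlapping. The brightest value among them was 14.03 and the brightest value of any gene 14.78. Over all 256 genes at that level the median difference was -0.03, with 27 higher, 25 lower and 190 not overlapping between groups, and differences ran from -1.5 to 0.86. ACTB, cytoskeletal actin, differed by 0.14 ± 0.05 (adjusted p = 0.0807).

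**Figure D3:**
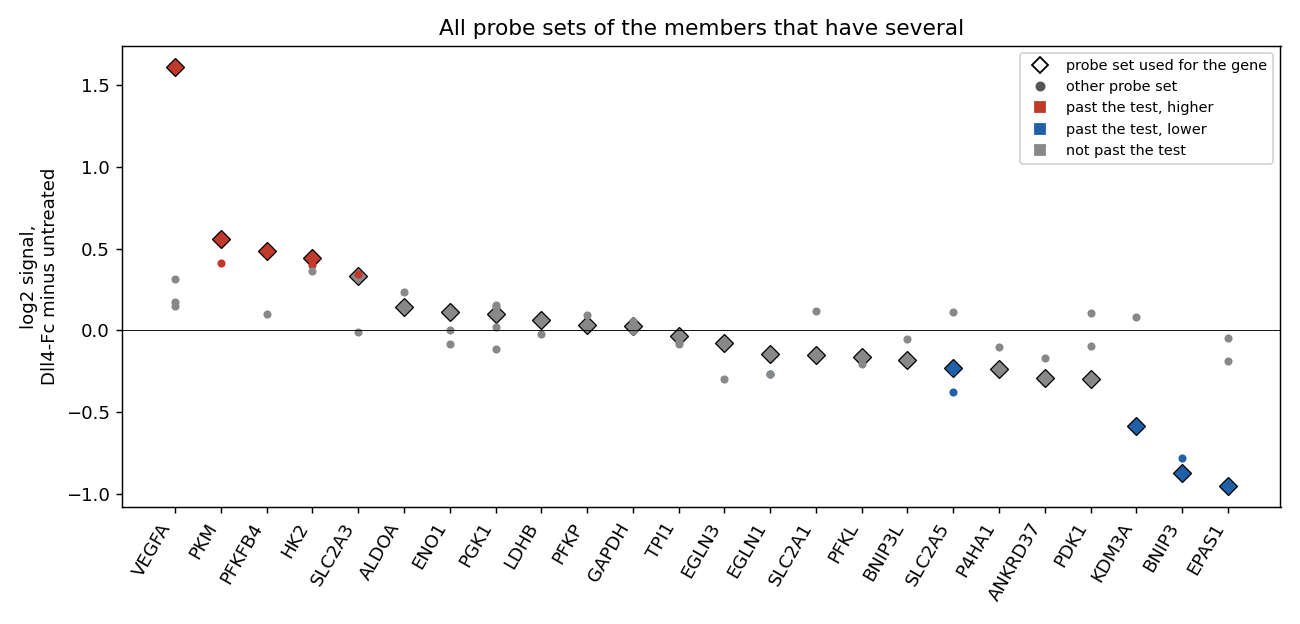
Difference in log2 signal, Dll4-Fc minus untreated, of each probe set of the 24 genes with several; diamonds mark the probe set used for the gene, and colours give the call in a fit over all 54675 probe sets. Probe sets agree closely for PKM, HK2 and BNIP3, while for VEGFA and EPAS1 the brightest probe set lies far from the others.

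Related genes were then compared with each other inside the same arrays. For each of 15 pairs the log2 signal of one gene minus that of the other was taken per array, and the groups were compared by an exact permutation test, 2-sided and adjusted over the 15 pairs. With 3 arrays against 3 the smallest possible p is 0.1, so no pair could pass (smallest adjusted p = 0.188). In 8 of the 15 pairs the groups did not overlap. For single genes, an unlike measure, this share was 41.6% of all genes and 75% of the 36. No share over other pairs of genes was taken. For the HIF alpha subunits, the difference for EPAS1 lay 1.12 ± 0.07 below that for HIF1A (exact permutation p = 0.1, n = 3 per group), and 0.56 below it as the mean of probe sets. HK2 and HK3 rose by 0.63 ± 0.16 and 0.62 ± 0.09 less than HK1 (both exact permutation p = 0.1), while HK3 and HK2 differed from each other by 0.00 ± 0.14.

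The difference for BNIP3L lay 0.69 ± 0.09 above that for BNIP3. Among carriers, SLC2A1 and SLC2A5 lay 0.49 ± 0.12 and 0.56 ± 0.13 below SLC2A3 in their change; as the mean of probe sets the pair SLC2A1 minus SLC2A3 was -0.24. ALDOC lay 0.40 ± 0.09 below ALDOA, and PFKP 0.19 ± 0.04 above PFKL. All of these had an exact permutation p of 0.1. The lactate dehydrogenase subunits differed in their change by 0.04 ± 0.03 (exact permutation p = 0.2), with overlapping arrays.

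**Figure D4:**
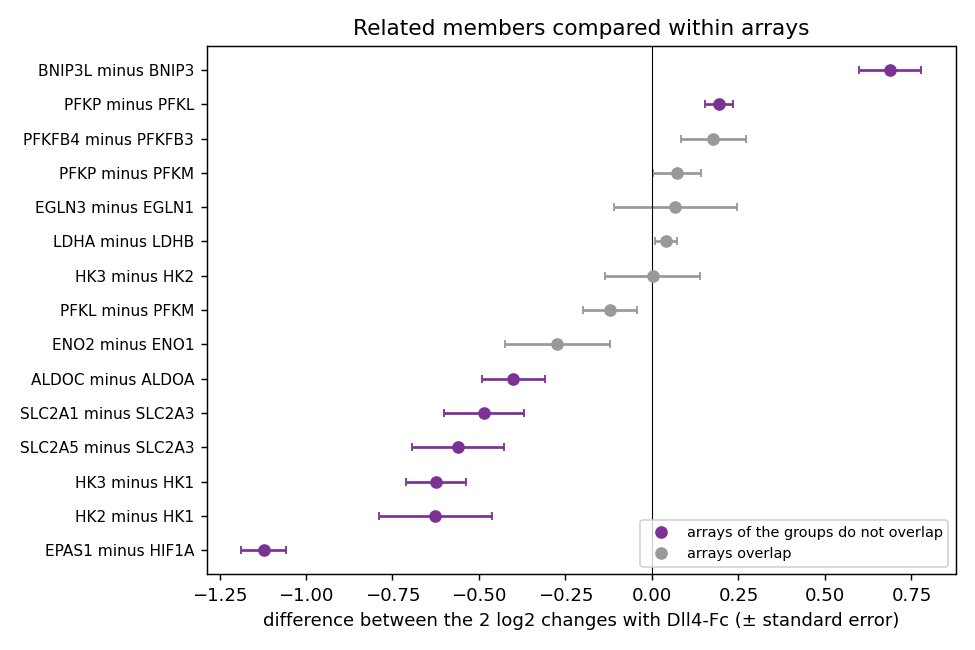
Difference between the log2 changes of 2 related genes with Dll4-Fc, measured within arrays, with the standard error as a bar (n = 3 arrays per group). Purple marks the 8 pairs whose groups do not overlap; EPAS1 minus HIF1A lies at -1.12 (-0.56 as the mean of probe sets) and HK3 minus HK2 lies at 0.00.

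Genes of neighbouring pathways also went in both directions. Of 38 further hypoxia-induced genes 12 (31.6%) were higher and 14 (36.8%) lower, against 11.6% and 15% of all genes, with a median of 0.00. The largest rises were those of IGFBP3, which binds insulin-like growth factors, at 8.32 ± 0.12 in Dll4-Fc cells against 4.64 ± 0.28 in untreated cells (SD, n = 3), and the small MAF factor MAFF, at 8.5 ± 0.07 in Dll4-Fc cells against 5.46 ± 0.15 in untreated cells. Both passed in every setting run, IGFBP3 with a difference of 3.69 ± 0.14 and MAFF with 3.04 ± 0.08, as did the repressor BHLHE40 with 0.69 ± 0.11. As the mean of probe sets MAFF gave 1.87 and BHLHE40 0.37. In the other direction ZNF395 fell by 1.40 ± 0.09, MXI1, an antagonist of MYC, by 1.19 ± 0.08 and the lipoprotein receptor VLDLR by 1.13 ± 0.09 (adjusted p of 0.000104 or less for the 3). ZNF395 gave 0.11 (adjusted p = 0.39) without shared probe sets.

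Among 16 partners and regulators of HIF 1 was higher and 5 were lower (6.25% and 31.2%, against 11.6% and 15% of all genes). The number lower was 1 without Dll4-Fc replicate 1 or 2 or untreated replicate 2, 2 without untreated replicate 1 or as the mean of probe sets, and 3 without Dll4-Fc replicate 3. ARNT, the partner of both alpha subunits, fell by 0.41 ± 0.08 (adjusted p = 0.0088), and HIF1AN, the asparagine hydroxylase that blocks HIF activity, by 0.24 ± 0.06 (0.0183). ELOB, a subunit of the VHL ubiquitin ligase complex, fell by 0.21 ± 0.05 and OS9 rose by 0.27 ± 0.05. The calls of HIF1AN and ELOB were both lost without Dll4-Fc replicate 1 or 2 or untreated replicate 1 or 2.

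In glycogen metabolism 0 of 17 genes were higher and 6 (35.3%) were lower, against 11.6% and 15% of all genes. Of the 17, 3 were lower without untreated replicate 2 and 4 without Dll4-Fc replicate 1 or 2 or untreated replicate 1. The falls were led by PPP1R3B, which targets a phosphatase to glycogen (-0.72 ± 0.10), the branching enzyme GBE1 (-0.41 ± 0.06) and the phosphorylase kinase subunit PHKA2 (-0.38 ± 0.09). The PHKA2 call was lost without untreated replicate 2 (adjusted p = 0.0515), and PPP1R3B was -0.39 as the mean of its probe sets. In the pentose phosphate pathway 2 of 7 (28.6%) were higher and 3 (42.9%) lower. PGD rose by 0.50 ± 0.05 and TKT by 0.19 ± 0.06. PGLS fell by 0.52 ± 0.06, RPIA by 0.30 ± 0.06 and H6PD by 0.27 ± 0.07. The TKT call was lost whichever array was left out, which left 1 gene higher, the H6PD call without Dll4-Fc replicate 1 or 2 or untreated replicate 1 or 3, and PGD gave 0.18 (adjusted p = 0.058) as the mean of its probe sets. Of 22 other glycolytic isoenzymes and sugar carriers 2 (9.09%) were higher and 3 (13.6%) lower, and 4 were higher without untreated replicate 3. TIGAR, which opposes glycolysis by lowering fructose 2,6-bisphosphate, rose by 0.71 ± 0.12 and the carrier SLC2A6 by 0.53 ± 0.06. PGM1, which links glycogen to glycolysis, fell by 0.61 ± 0.06, BSG, the chaperone of lactate carriers, by 0.43 ± 0.06 and SLC2A9 by 0.21 ± 0.05, a call lost without Dll4-Fc replicate 1 or 2 or untreated replicate 1 or 2.

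Of 13 genes for the entry of pyruvate into mitochondria 2 were higher (15.4%) and 1 lower (7.69%), against 11.6% and 15% of all genes. PDK3, another kinase that inhibits pyruvate dehydrogenase, fell by 0.79 ± 0.05 (adjusted p = 3.49e-05), MPC1, a subunit of the mitochondrial pyruvate carrier, rose by 0.24 ± 0.05 (0.0105) and the phosphatase gene PDP1 by 0.27 ± 0.08 (0.0483). Leaving out any array other than untreated replicate 1 ended the PDP1 call and left 1 gene higher, and without untreated replicate 3 there were 2 lower. In the tricarboxylic acid cycle 4 of 17 (23.5%) were higher and 1 (5.88%) lower. IDH3A rose by 0.55 ± 0.07, SDHD by 0.27 ± 0.05 and MDH1 by 0.23 ± 0.05, and IDH2 fell by 0.28 ± 0.05. IDH3A gave 0.02 without shared probe sets, and MDH1 did not pass without Dll4-Fc replicate 2, where 2 genes of the cycle were higher. As the mean of probe sets MPC1 and SDHD each gave 0.17 and did not pass. In gluconeogenesis PCK2, the mitochondrial enzyme that makes phosphoenolpyruvate, rose by 0.70 ± 0.07 (adjusted p = 0.000359) and the other 6 genes did not pass.

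**Figure D5:**
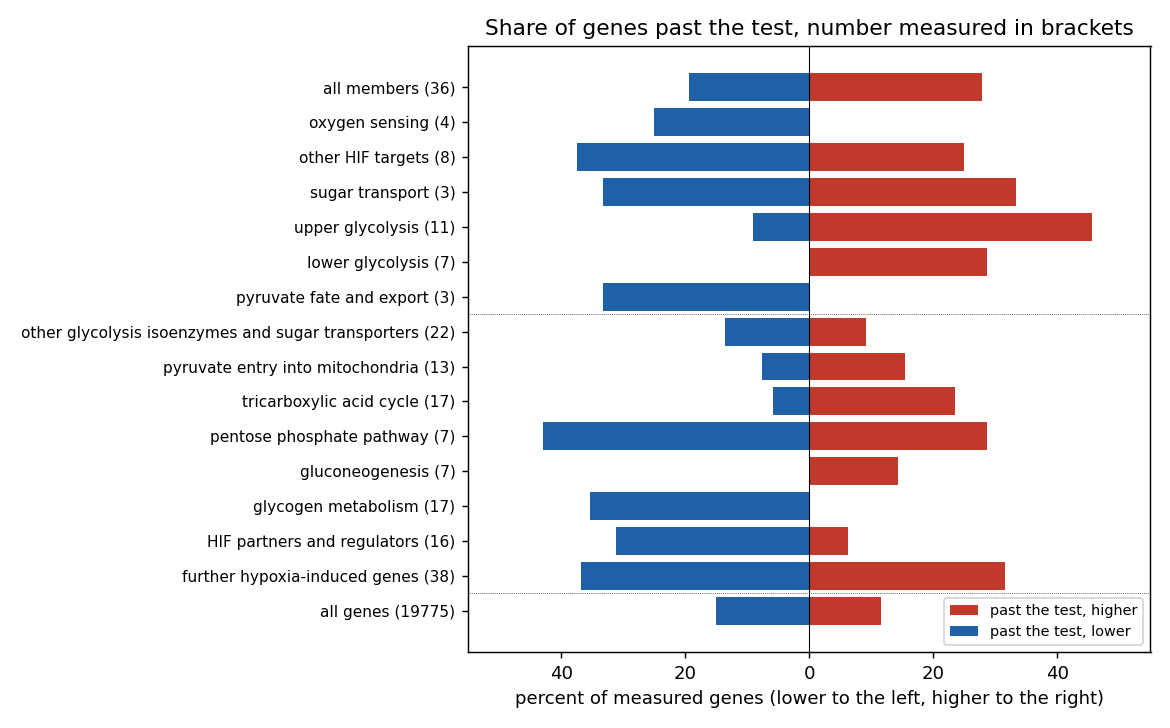
Percent of measured genes past the test in each role and each neighbouring list, higher to the right and lower to the left, with the number measured in brackets; all genes are in the bottom row (11.6% higher, 15% lower). Upper glycolysis has the longest bar to the right, glycogen metabolism has none to the right, and each bar of a role with 3 or 4 genes stands for 1 gene.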

How the data were processed

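Expression was measured in 6 THP1 samples, 3 on Dll4-Fc and 3 untreated, each from 5 ng of RNA amplified before hybridisation, per the labels' protocols. The authors deposited linear intensity values for 54675 probe sets, made with RMA per the submitters' processing notes, which name no version. Array medians were 50.6 to 52.7, which hides any difference in RNA content between the groups' cells.

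Intensities were log2 transformed here. Of the probe sets, 41097 had exactly 1 symbol in the platform annotation, and each of 19775 genes was represented by its brightest one (highest mean of the 6 arrays). Groups were set against each other in R 4.3.3 by limma 3.58.1 with lmFit and eBayes (2-sided, 4 residual degrees of freedom). The procedure was tested on simulated arrays with independent noise, which cannot show whether the samples were separate cultures. Precision is limited by the number of arrays, with a median standard error of 0.075. The 39 genes and the other lists were chosen with earlier results of these data known, so no list was tested. Named were every measured gene of the 39, up to 3 called genes in each direction of every neighbouring list, and ACTB. Alternatives were 7 settings (replicate block, mean of probe sets, shared probe sets left out, dim genes left out, cyclic loess, median centring, trended robust prior) and each array left out in turn.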

Additional observations from a re-analysis of the deposited data

How the results depend on the processing

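Of the 17 called genes 10 kept their call under all 13 alternatives in which they were measured, 7 lost it in at least 1, and 0 reversed. Same-numbered arrays of the groups deviated from their group means with correlations of 0.01, -0.21 and -0.15, and differently numbered ones with -0.04 to 0.22. With 3 arrays per group these values cannot settle whether replicate numbers pair the samples. With the replicate block 7 of the 36 genes were higher and 4 lower, with 0 and 0 in sugar transport, 0 lower in upper and 1 higher in lower glycolysis. That setting gave 1829 higher and 2061 lower among all 19775 genes. Without shared probe sets, where 22 of the 36 could be measured, 4 were higher and 3 lower: 0 and 1 of the other HIF targets, 0 higher in sugar transport, 3 and 0 in upper glycolysis, 1 higher in lower glycolysis and 0 lower in pyruvate fate. Among all 16790 genes measured there 1575 were higher and 2212 lower. VEGFA, NDRG1, SLC2A3, HK3, PFKFB3, PGAM1 and KDM3A could not be measured there, so their calls were not put to this setting. Of the genes called higher as reported 4 were measured there, and all stayed higher. Of those called lower 6 were measured, and ALDOC, P4HA1 and PDK1 lost the call. Cyclic loess gave 4 of the 36 lower, 1 higher in oxygen sensing, and 0 lower in upper glycolysis and pyruvate fate. Among all 19775 genes it gave 2799 higher and 2496 lower. The trended robust prior gave 17 of the 36 higher, with 1 higher and 2 lower in oxygen sensing, 4 higher in lower glycolysis and 2 higher in pyruvate fate. Among all 19775 genes it gave 2624 higher and 3600 lower. Median centring gave 2 lower in oxygen sensing and 2 in upper glycolysis, 0 higher in sugar transport and 1 in lower glycolysis. The mean of probe sets gave 2 lower in oxygen sensing and 2 in upper glycolysis, and 0 in pyruvate fate. Leaving out dim genes gave 1 higher and 2 lower in oxygen sensing, 2 lower in sugar transport and 2 in upper glycolysis. The cause of these shifts was not tested, beyond the fewer genes measured without shared probe sets.

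With 1 array left out, 7 to 8 of the 36 were higher and 3 to 7 lower, and over all genes 1795 to 2269 were higher and 1850 to 3189 lower. By role the ranges were 0 to 0 higher and 1 to 1 lower in oxygen sensing, 2 to 2 and 2 to 4 in other HIF targets, 0 to 1 and 0 to 1 in sugar transport, 4 to 5 and 0 to 1 in upper glycolysis, 1 to 1 and 0 to 0 in lower glycolysis, and 0 to 0 and 0 to 1 in pyruvate fate.

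Signs turned for genes and pairs not past the test, and for the called ZNF395, which was 0.113 without shared probe sets. In that setting the median difference of the members, 22 of them measured, was -0.0939, against 0.0284 as reported. With cyclic loess the median difference of all genes was 0.0055, against -0.0137 as reported. Without shared probe sets SLC2A1 was 0.119 and ENO1 -0.0849. With 1 array left out EGLN3 was -0.148 to 0.067 and PFKM -0.0935 to 0.037. The pair PFKFB4 minus PFKFB3 was -0.0133 as the mean of probe sets, the pair HK3 minus HK2 was -0.0318 with cyclic loess and -0.125 to 0.0685 with 1 array left out, and the pair EGLN3 minus EGLN1 was -0.0124 to 0.224 with 1 array left out.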
